A study of Homo sapiens with 16 samples.

Results

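A set of 6 genes that interferon switches on in many human cells was followed in HMC3, a human microglial cell line: PARP9, DTX3L, PARP10, PARP12, PARP14 and ZC3HAV1. They were taken by gene symbol, and all 6 were found once in each of the 2 deposited tables, among 60669 genes. The libraries were labelled wild type (WT) or knockout of METTL3 (METTL3 KO), the catalytic subunit of the enzyme that writes N6-methyladenosine on RNA. No treatment is given for either group. Smart-seq2, which amplifies RNA with a poly(A) tail, gave 5 libraries per genotype, used here through the authors' deposited comparison; rRNA depletion with a directional kit gave 3 per genotype, used through TPM, a gene's share of a library's transcripts after division by gene length. The labels do not say whether the knockout line is 1 clone, nor that replicates are separate cultures, so p-values measure the spread between these samples, which may be technical.

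PARP enzymes move ADP-ribose from NAD onto proteins and nucleic acids. PARP10, PARP12 and PARP14 add single ADP-ribose units, and PARP9 forms a complex with the ubiquitin ligase DTX3L. ZC3HAV1, also called ZAP or PARP13, has no catalytic activity and guides viral and some cellular RNA to decay. Interferon acts on such genes largely through a complex that includes STAT2 and IRF9 and binds the interferon-stimulated response element.

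Sequences around the genes' start sites are shown first, because 4 of the 5 genes with an entry hold the element's core letters there. The windows, from RefSeq on GRCh38.p14, run from 250 bases before to 50 after a RefSeq start, and capitals mark the core of the element, GAAA, any 2 bases (NN) and GAAA in a row, searched on both strands. PARP9 (minus strand, chr3:122564251-122564550) and DTX3L (plus strand, chr3:122564088-122564387) are transcribed away from each other from RefSeq starts 38 bp apart. Their windows share 137 bp and a single match, GAAACTGAAA, at chr3:122564332-122564341. The windows of PARP14 (plus strand, chr3:122680589-122680888), PARP12 (minus strand, chr7:140062902-140063201) and ZC3HAV1 (minus strand, chr7:139109671-139109970) are printed for comparison.
PARP9: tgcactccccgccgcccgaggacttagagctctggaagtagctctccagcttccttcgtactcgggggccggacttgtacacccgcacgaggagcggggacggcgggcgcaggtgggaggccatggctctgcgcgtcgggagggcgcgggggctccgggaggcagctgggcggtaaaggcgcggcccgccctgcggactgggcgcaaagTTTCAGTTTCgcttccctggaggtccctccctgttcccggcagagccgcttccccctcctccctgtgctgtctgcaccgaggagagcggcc
DTX3L: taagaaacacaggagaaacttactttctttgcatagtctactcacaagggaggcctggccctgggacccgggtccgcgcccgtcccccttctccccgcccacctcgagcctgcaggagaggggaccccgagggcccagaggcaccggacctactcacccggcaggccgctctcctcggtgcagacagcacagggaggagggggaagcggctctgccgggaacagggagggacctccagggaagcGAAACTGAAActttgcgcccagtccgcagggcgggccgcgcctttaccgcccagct
PARP14: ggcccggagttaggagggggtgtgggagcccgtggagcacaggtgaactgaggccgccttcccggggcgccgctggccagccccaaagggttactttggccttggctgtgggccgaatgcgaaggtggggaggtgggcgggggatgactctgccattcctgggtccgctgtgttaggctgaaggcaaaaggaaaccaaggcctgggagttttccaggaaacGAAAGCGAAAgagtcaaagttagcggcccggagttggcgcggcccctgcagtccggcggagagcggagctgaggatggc
PARP12: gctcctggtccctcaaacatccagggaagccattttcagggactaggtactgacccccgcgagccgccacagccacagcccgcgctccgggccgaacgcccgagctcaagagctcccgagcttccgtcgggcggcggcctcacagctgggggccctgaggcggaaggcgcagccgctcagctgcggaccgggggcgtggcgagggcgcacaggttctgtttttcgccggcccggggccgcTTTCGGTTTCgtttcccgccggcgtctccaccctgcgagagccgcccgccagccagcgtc
ZC3HAV1: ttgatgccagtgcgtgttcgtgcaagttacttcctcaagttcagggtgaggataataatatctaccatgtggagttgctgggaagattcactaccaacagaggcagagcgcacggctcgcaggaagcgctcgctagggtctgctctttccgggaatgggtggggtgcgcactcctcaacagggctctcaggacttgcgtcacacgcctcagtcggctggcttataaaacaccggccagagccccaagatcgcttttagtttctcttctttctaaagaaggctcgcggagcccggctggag

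The first base of the match lay at -41 from the start of PARP9, -6 from that of DTX3L, -29 from that of PARP14 and -10 from that of PARP12. PARP14 carried it as GAAAGCGAAA and PARP12 as GAAACCGAAA on the strand of the motif. The core was found in 3.57% of all 35116 windows, or for 4.38% of the 27305 genes with a window. A second PARP9 window, for a start 446 bp from that of DTX3L, and the ZC3HAV1 window did not hold these letters. TTCNNNGAA, the core of the gamma-activated site of interferon-gamma signalling, reads the same on both strands and was in 7.66% of all windows; PARP14 had TTCCAGGAA and ZC3HAV1 TTCCGGGAA. The 2 motifs did not overlap in the PARP14 window. A match is a description of letters, and PARP10 had no entry.

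On GENCODE 29 (GRCh38), PARP9 (ENSG00000138496; chromosome 3, 122527924 to 122564577) and DTX3L (ENSG00000163840; chromosome 3, 122564238 to 122575203) overlap by 340 bp on opposite strands, and PARP14 (ENSG00000173193; chromosome 3, 122680618 to 122730840) starts 116.4 kb from DTX3L. ZC3HAV1 (ENSG00000105939; 139043520 to 139109719) and PARP12 (ENSG00000059378; 140023744 to 140063721), both on the minus strand of chromosome 7, start 954 kb apart. PARP10 (ENSG00000178685; chromosome 8, minus strand, 143977153 to 144012772) overlaps GRINA, on the opposite strand, by 3358 bp. Whether the authors counted by strand is not given in the sources used here, so reads from such overlaps may have gone to either gene.

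Depth and labels were checked once. TPM gave back 407900, 266157 and 487272 reads in wild-type libraries and 1038575, 1267171 and 512627 in knockout-labelled ones, in replicate order. Each knockout-labelled library was thus deeper than any wild-type one, so depth differed with the label. The 6 genes came out in whole reads, to within 0.02 reads, in all 6 libraries. In a chi-square test of reads, no difference beyond sampling noise was detected between knockout-labelled libraries 1 and 2 (1.02 per degree of freedom over 10117 genes, p = 0.0687), while the other pairs of one label gave 1.16 to 1.54 per degree of freedom. Those 2 libraries were averaged and counted as 1 sample, so 3 samples labelled wild type were set against 2 labelled knockout. METTL3 TPM was higher in every knockout-labelled library than in any wild-type one: 31.2, 31.6 and 25.4 TPM in wild type against 39.2, 39.96 and 42.7 TPM (two-sided exact permutation p = 0.2, the smallest that 3 against 2 samples allow). Its log2 change was 0.48 (limma adjusted p of 0.106) and turned to -0.37 with the GC trend removed (0.271), neither past the threshold. The mRNA level therefore does not check the label, and directions refer to libraries as labelled. Of 12 microglial markers, 8 were listed at 0 in all 6 libraries, among them AIF1, PTPRC, CX3CR1, P2RY12 and TMEM119. The list of 7 mesenchymal markers summed to 11418 to 13865 TPM in wild type, most of it COL1A1, and to 5318 to 5404 TPM in knockout-labelled libraries. It had no shared direction: 2 of the 4 tested rose and 2 fell at a limma adjusted p under 0.05. Among all genes tested 22.9% rose and 12.4% fell. The other 3 markers of this list had at most 2 reads in any library, with LUM at 0 in all. Their part in the results was not tested.

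In the rRNA-depleted libraries PARP9, DTX3L, PARP14 and ZC3HAV1 were each about 3- to 7-fold higher under the knockout label, and PARP12 and PARP10 did not pass the test. 4 of the 6 genes rose at a limma adjusted p under 0.05 over all 14789 genes tested, where 22.9% of all genes rose; none of the 6 fell, against 12.4% of all genes, and 35.3% passed in either direction. With reads thinned to the shallowest library, 4 of the 6 were again called, as were 3625 of all 13221 genes tested. The change is given as log2 of knockout-labelled over wild-type TPM + 1, which understates the change of genes at a few TPM. The median change of the 6 was 1.62, against 0.41 over all genes tested. In bulk RNA, a higher level per cell and more cells with a high level cannot be told apart.

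PARP9, the macrodomain partner of DTX3L, was the least abundant of the 6 in wild type. Its wild-type libraries, in replicate order, gave 3.96, 3.47 and 2.68 TPM, against 32.3, 29.4 and 19.5 TPM under the knockout label. Every knockout-labelled library was above every wild-type library. Wild-type PARP9 rests on 5, 3 and 4 reads, against 86, 96 and 27. The mean of 3.37 ± 0.648 TPM (SD, n = 3) in wild type compares with 25.2 ± 8.01 TPM (SD, n = 2), 7.47-fold higher, and pooled reads gave 8.62-fold with an exact 95% interval of 4.83 to 16.9 that covers counting error only. On the log2 scale PARP9 rose by 2.56, with an SE of 0.41 (limma, adjusted p 0.00864).

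DTX3L, the ubiquitin ligase that pairs with PARP9, was at 25.3, 26.5 and 21.4 TPM in wild type and at 97.7, 96.2 and 82.5 TPM in knockout-labelled libraries. The groups did not overlap, and the libraries of a label lay close together. The mean was 24.4 ± 2.64 TPM (SD, n = 3) in wild type and 89.7 ± 10.2 TPM (SD, n = 2) under the knockout label, a 3.68-fold rise. DTX3L rose by 1.84 on the log2 scale with an SE of 0.18, the smallest of the 6 (limma, adjusted p 0.00262).

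In the rRNA-depleted libraries the DTX3L level exceeded that of PARP9 by a smaller ratio under the knockout label. The TPM ratio was 6.40, 7.62 and 8.0 in wild-type libraries and 3.03, 3.27 and 4.23 in knockout-labelled libraries, with no overlap. On the log2 scale it went from 2.87 ± 0.17 (SD, n = 3) to 1.87 ± 0.30 (SD, n = 2; two-sided exact permutation p = 0.2, the smallest this design allows). The 3 to 5 PARP9 reads of each wild-type library limit this ratio. In the authors' deposited poly(A) table the log2 fold changes lay closer together, at 1.80 (SE 0.12) for PARP9 and 1.64 (SE 0.15) for DTX3L. Whether the ratio differed there was not tested.

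PARP14, a large macrodomain enzyme that mono-ADP-ribosylates proteins, was at 12.1, 12.8 and 14.8 TPM in wild type and at 49.5, 50.6 and 36.9 TPM in knockout-labelled libraries. Knockout-labelled library 3 was the lowest of its label for PARP14, as it was for PARP9, DTX3L and ZC3HAV1, and still above all wild-type values. The mean rose 3.28-fold, or by 1.63 on the log2 scale with an SE of 0.25 (limma, adjusted p 0.00775).

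ZC3HAV1, the RNA-binding member, was at 17.2, 27.6 and 17.4 TPM in wild type and at 64.7, 69.8 and 60.4 TPM in knockout-labelled libraries. Wild-type library 2, the shallowest, was high, yet the groups stayed apart. The mean rose 3.07-fold, or by 1.61 on the log2 scale with an SE of 0.27 (limma, adjusted p 0.00988). Without knockout-labelled library 3 the limma adjusted p of ZC3HAV1 was 0.0523, above the threshold; that fit has 1 knockout-labelled sample, assumed to vary like the wild type, and calls 2027 genes in place of 5220.

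PARP12, a zinc-finger enzyme that blocks replication of some RNA viruses, was at 15.8, 9.88 and 18.1 TPM in wild type and at 16.0, 20.5 and 19.5 TPM in knockout-labelled libraries. The groups overlapped, since wild-type library 3 was above knockout-labelled library 1. The log2 change was 0.39, with a 95% interval of -0.47 to 1.25 (limma adjusted p of 0.414). PARP10, a mono-ADP-ribosyltransferase with ubiquitin-binding motifs, was at 21.1, 25.7 and 15.9 TPM in wild type and at 13.3, 11.8 and 16.1 TPM in knockout-labelled libraries. These values overlapped too, and the log2 change was -0.50, with an interval of -1.28 to 0.28 (limma adjusted p of 0.26). PARP10 passed as lower when recovered reads were tested with voom (log2 change -0.87, adjusted p of 0.0166), and its sign turned with the GC trend removed. With voom, 3507 of 14673 genes passed as lower. No knockout-labelled library overlapped the wild type for 4 of the 6 genes, PARP9, DTX3L, PARP14 and ZC3HAV1, all higher; over all genes tested, 38.4% had every knockout-labelled library above every wild-type one, and 58.4% did not overlap in either direction.

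**Figure D1:**
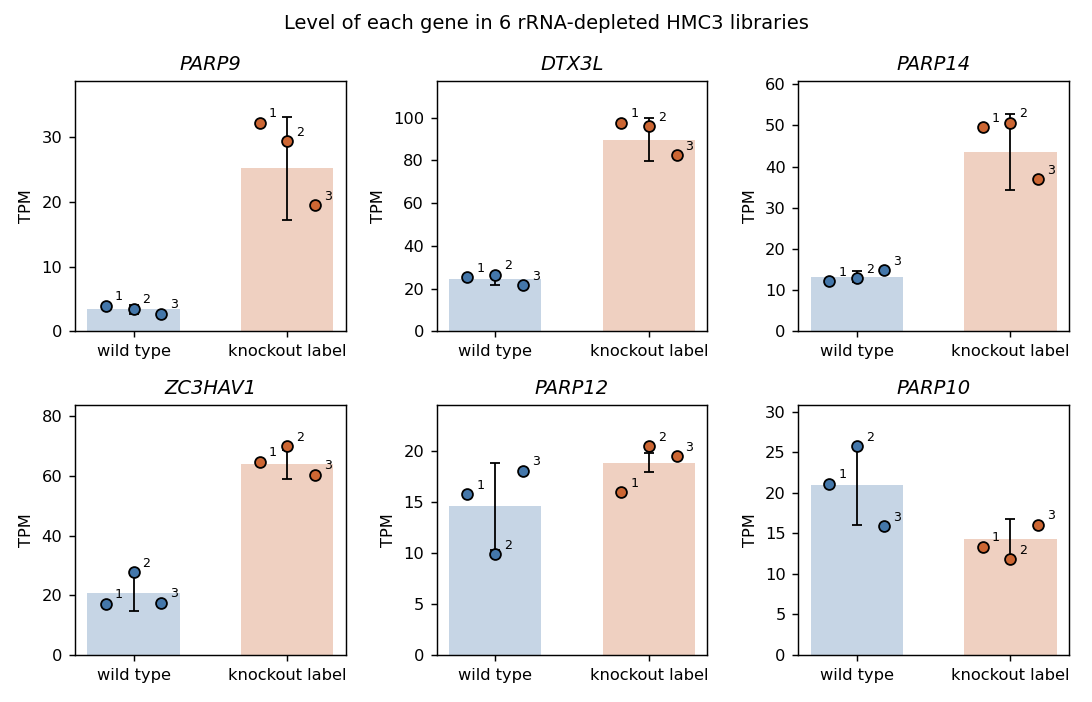
TPM of each gene (y axis, from 0) in wild-type and knockout-labelled rRNA-depleted HMC3 libraries; points are libraries with their replicate numbers, bars the means and whiskers the SD over 3 and 2 samples, knockout-labelled libraries 1 and 2 counted as 1. PARP9, DTX3L, PARP14 and ZC3HAV1 are separated by label, and PARP12 and PARP10 overlap.

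The order of the 6 genes by level also differed between labels. TPM is per length, so levels can be set side by side. The division by length does not remove the shift with GC content given below, and the order was not corrected for it. In wild type, DTX3L (24.4 TPM), PARP10 (20.9), ZC3HAV1 (20.8), PARP12 (14.6) and PARP14 (13.3) each overlapped the next in library values, and only PARP9 lay apart below. Under the knockout label DTX3L, ZC3HAV1, PARP14 and PARP9 formed descending steps without overlap, at 89.7, 63.8, 43.5 and 25.2 TPM. PARP9 then overlapped PARP12 at 18.9 TPM, and PARP12 overlapped PARP10 at 14.3 TPM. The 6 together summed to 90.4 to 106 TPM in wild-type libraries and 235 to 278 TPM in knockout-labelled libraries.

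GC content of the transcript moved with the change across all genes and with the split among the 6. The median log2 change fell from 1.24 in the lowest of 10 equal GC bins to -0.41 in the highest. The 4 genes that rose have a GC content of 42.4% to 44.2% in their longest transcript, PARP12 54.5% and PARP10 66.9%. Genes within 2 percentage points of PARP9 had a median log2 change of 0.86, so PARP9 lay 1.70 above them. DTX3L lay 1.04 above genes of like GC content, ZC3HAV1 0.80, PARP14 0.73, PARP12 0.34 and PARP10 0.14. After removal of this trend library by library, PARP9 (log2 change 1.75, limma adjusted p of 0.0258) and DTX3L (1.06, 0.0118) still passed, where 11.4% of all genes rose. PARP14 (0.77, limma adjusted p of 0.0605) and ZC3HAV1 (0.83, 0.0929) did not.

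**Figure D2:**
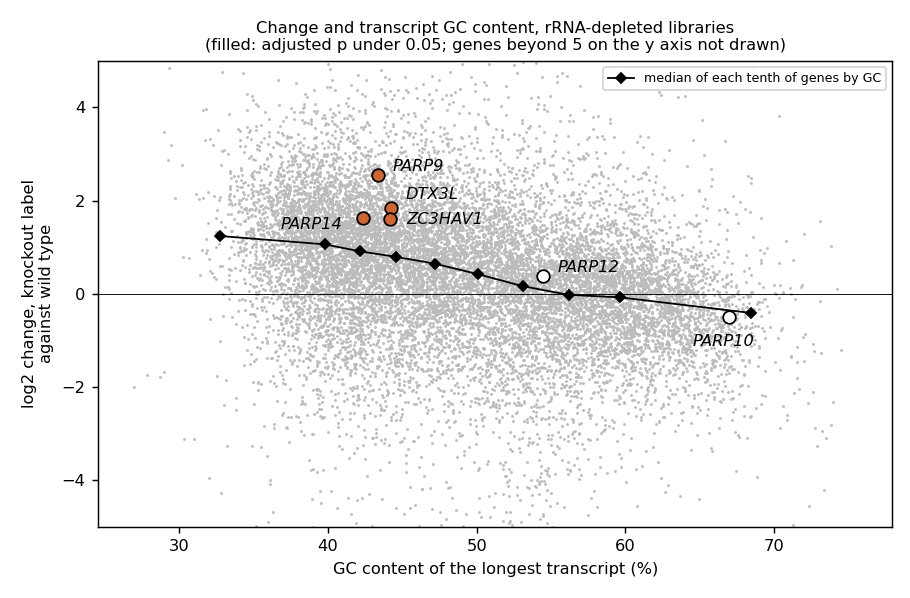
Log2 change between labels (y axis) against GC content of the longest transcript in percent (x axis) for genes tested in the rRNA-depleted libraries (grey), with medians of 10 equal GC bins (diamonds) and the 6 genes as large circles, filled where the adjusted p was under 0.05. All 6 lie above or close to the falling median line, PARP9 farthest above it.

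The poly(A) libraries asked the same of polyadenylated RNA. 5 of the 6 genes were higher at an adjusted p under 0.05 in the authors' deposited table, against 9.55% of its 14009 genes with an adjusted p, and none was lower, against 10.3% of all; 19.9% passed in either direction. Which group is the numerator is not named. Positive values are read as higher under the knockout label, since 162 of 177 genes called in both library types and changed 2-fold or more then share a sign (91.5%). In the authors' deposited table PARP9 had a log2 value of 1.80 (SE 0.12) and the smallest adjusted p of the 6, 5.41e-50. DTX3L followed at 1.64 (SE 0.15; adjusted p 2.02e-25) in the authors' deposited table. PARP14 had 1.35 (SE 0.19; adjusted p 4.17e-11) and ZC3HAV1 0.64 (SE 0.13; adjusted p 2.94e-05) in the authors' deposited table. These are 3.47-, 3.11-, 2.55- and 1.56-fold in the authors' deposited table.

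PARP12 and PARP10 were scarce in the poly(A) libraries, with mean normalized counts of 6.81 and 5.48 in the authors' deposited table, where the other members had 114 to 179. PARP12 had the highest log2 fold change of the 6 there, 2.05 (SE 0.58; adjusted p 0.00431 in the authors' deposited table). PARP10 had 0.82 (SE 0.51; adjusted p 0.284 in the authors' deposited table). PARP12 thus passed in the poly(A) table and not in the rRNA-depleted libraries, and ZC3HAV1 had a log2 change of 0.64 in one and 1.61 in the other; whether the library types differ was not tested. Higher past the threshold in both library types were PARP9, DTX3L, PARP14 and ZC3HAV1, 4 of the 6, against 5.18% of 12498 genes with a p in both.

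**Figure D3:**
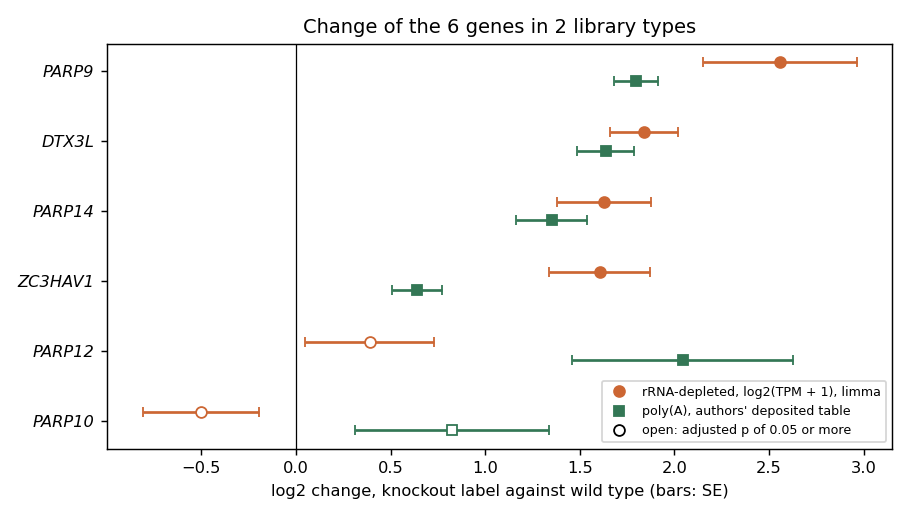
Log2 change under the knockout label (x axis) of each gene in rRNA-depleted libraries (circles, limma on log2(TPM + 1)) and in the authors' deposited poly(A) table (squares), with SE; open symbols did not pass 0.05. PARP9 and DTX3L lie above 1.5 in both, ZC3HAV1 is lower in the poly(A) table, and PARP12 passes in that table but not in the rRNA-depleted libraries.

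The rest of the family was given by a list of 12 other PARP genes, of which 11 were tested. In the rRNA-depleted libraries 4 rose and none fell, where 22.9% of all genes tested rose and 12.4% fell. The median log2 change of the 11 was 0.76, beside 0.41 for all genes. PARP4, a vault-particle enzyme, averaged 7.17 ± 4.11 TPM (SD, n = 3) in wild type and 27.9 ± 3.43 TPM (SD, n = 2) under the knockout label, higher by 1.93 on the log2 scale. TNKS, the tankyrase that builds ADP-ribose chains in Wnt and telomere control, rose by 1.53 and PARP1, the DNA-damage enzyme, by 0.76 on the log2 scale. PARP8, with at most 3 reads in any wild-type library, was at least 3.45-fold higher against a floor of 3 reads per library. With the GC trend removed none of these 4 passed, at limma adjusted p-values of 0.141, 0.156, 0.134 and 0.348 for PARP4, TNKS, PARP1 and PARP8. Without knockout-labelled library 3 the values were 0.117, 0.0819, 0.0549 and 0.235. PARP4 also lost the threshold without wild-type library 1 (0.0628) or 3 (0.0636), and PARP8 without wild-type library 3 (0.0524). With median ratio scaling the limma adjusted p was 0.0553 for PARP1 and 0.0578 for PARP4. Quantile normalization gave 0.0577 for PARP4 and 0.0663 for PARP8, and PARP8 had 0.0961 without the low-value filter. With reads thinned to the shallowest library PARP4, TNKS and PARP8 had 0.0657, 0.0596 and 0.0839, and PARP1 still passed (0.0381).

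The authors' deposited table called 2 of these 11 PARP genes higher, TNKS2 (0.54) and PARP16 (0.71), and 1 lower, PARP1 (-0.32, adjusted p 7.89e-06). PARP1 was thus opposite in sign between the library types. The median of the 11 was 0.25 in the authors' deposited table, beside 0.02 over all genes, of which 9.55% were called higher and 10.3% lower. Among the other Deltex ligases, DTX2 and DTX3 did not pass in either library type, with log2 changes of 0.12 and -0.02 in the rRNA-depleted libraries. PARP15, which lies between DTX3L and PARP14, was listed at 0 in all 6 libraries.

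Partners of ZC3HAV1 formed a list of 11 genes, of which 2 rose and 2 fell in the rRNA-depleted libraries. Among all genes tested there, 22.9% rose and 12.4% fell. TRIM25, the ubiquitin ligase that ZC3HAV1 needs for its antiviral action, averaged 29.2 ± 4.40 TPM (SD, n = 3) in wild type and 91.6 ± 4.90 TPM (SD, n = 2) under the knockout label, higher by 1.63 on the log2 scale (limma, adjusted p 0.00381). XRN1, an exonuclease that degrades decapped RNA, rose by 1.70, but not with the GC trend removed (limma adjusted p of 0.268) or without knockout-labelled library 3 (0.0909). ZC3HAV1L, which resembles the amino-terminal zinc-finger part of ZC3HAV1 and starts 73690 bp from it, averaged 105 ± 22.8 TPM (SD, n = 3) in wild type against 33.5 ± 0.448 TPM (SD, n = 2), and fell by 1.60 on the log2 scale (limma, adjusted p 0.0051). EXOSC3, a subunit of the RNA exosome, fell by 2.18 on the log2 scale. Of the 11, 3 were higher in the authors' deposited table, TRIM25 (0.65), N4BP1 (0.64) and DDX17 (0.50), and none was lower. The shares over all genes there were 9.55% higher and 10.3% lower. ZC3HAV1L had -0.26 and EXOSC3 -0.20 in the authors' deposited table, at adjusted p-values of 0.656 and 0.405. KHNYN, the nuclease cofactor, did not pass in either.

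Enzymes that remove ADP-ribose had no shared direction. In the rRNA-depleted libraries 22.9% of all genes tested rose and 12.4% fell. Of 5 tested, PARG, which cuts ADP-ribose chains, rose by 1.54 on the log2 scale, with means of 8.78 ± 1.66 TPM (SD, n = 3) in wild type and 27.1 ± 0.952 TPM (SD, n = 2). MACROD1, which removes single units, fell by 1.11, with means of 30.9 ± 6.24 TPM and 13.7 ± 2.53 TPM. Neither passed with the GC trend removed (limma adjusted p of 0.169 and 0.325) or without knockout-labelled library 3 (0.106 and 0.0909), and MACROD1 also lost the threshold without wild-type library 2 (0.0687) or 3 (0.0802). With reads thinned to the shallowest library PARG had a limma adjusted p of 0.0544 and MACROD1 0.131. The authors' deposited table called ADPRS (-0.63) and OARD1 (-0.55) lower and none of the 5 higher, against 10.3% and 9.55% of all genes.

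Among 10 genes that supply NAD, the substrate of PARP enzymes, 3 of 8 tested fell and 1 rose in the rRNA-depleted libraries. For all genes tested the shares were 12.4% and 22.9%. QPRT, which makes the NAD precursor from quinolinate, was at 62.2, 48.3 and 67.4 TPM in wild type and at 0, 0 and 1.77 TPM in knockout-labelled libraries, from 0, 0 and 1 reads. It was at least 15.2-fold lower against a floor of 3 reads per library (limma adjusted p of 0.00269). NAPRT, which uses nicotinic acid, stood at 36.8, 43.7 and 38.9 TPM against 15.2, 8.90 and 10.5 TPM, a log2 change of -1.73 (limma adjusted p of 0.00419). Both groups of NAPRT values stood apart. The authors' deposited table also had both lower, QPRT at -5.16 (SE 0.72; adjusted p 6.17e-11) and NAPRT at -4.59 (SE 0.94; adjusted p 2.3e-05, from a mean normalized count of 4.23). NMNAT1, a nuclear NAD synthase, fell by 2.0 on the log2 scale, and had -0.05 in the authors' deposited table. NAMPT, rate-limiting for NAD from nicotinamide, rose by 1.70, but its limma adjusted p of 0.0454 became 0.513 with the GC trend removed, 0.163 without knockout-labelled library 3, and 0.066 and 0.0526 without wild-type library 1 or 3. NMNAT1 lost the threshold without knockout-labelled library 3 (0.129) or wild-type library 1 (0.0727) or 2 (0.0705).

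**Figure D4:**
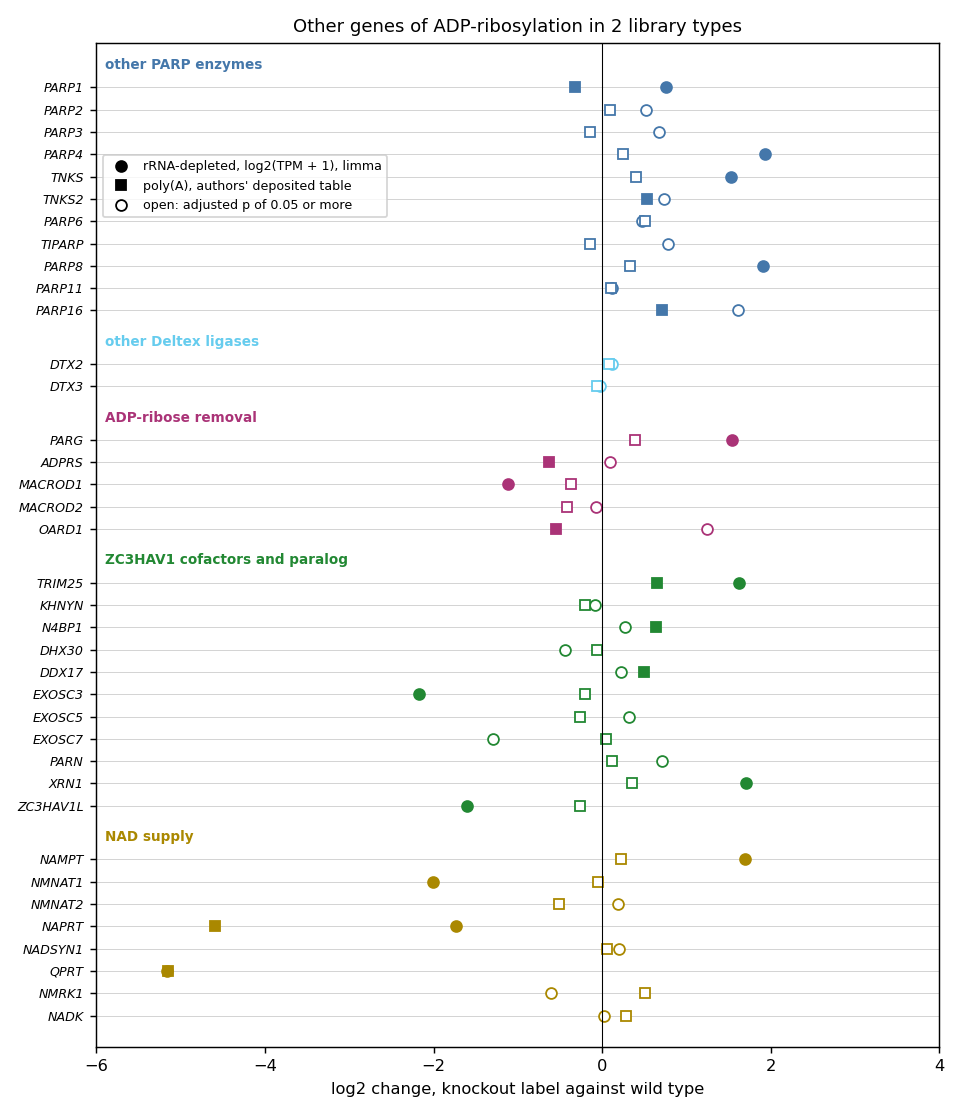
Log2 change under the knockout label (x axis) of the other genes of ADP-ribosylation, by list, in rRNA-depleted libraries (circles) and in the authors' deposited poly(A) table (squares); filled symbols passed 0.05. QPRT and NAPRT are low in both library types, and PARP1 lies on opposite sides of 0.

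Interferon-related factors were described with the same fits. STAT2, a subunit of the complex on the response element, rose by 0.55 in the rRNA-depleted libraries (limma adjusted p of 0.0441), but not without the low-value filter (0.0638), with voom (0.107), with median ratio scaling (0.324), with the GC trend removed (0.413), without knockout-labelled library 3 (0.164) or without wild-type library 2 (0.057) or 3 (0.0769). IRF9, IRF1 and IRF7 did not pass there. The authors' deposited table called STAT2 (0.62), IRF1 (0.76) and IRF7 (0.69) higher; IRF9 had 1.07 with an adjusted p of 0.106 in the authors' deposited table.

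Other genes near the 3 members on chromosome 3 were counted within 200 kb of each start. Of 7 tested genes around DTX3L, 3 rose, PARP9, PARP14 and KPNA1, and none fell. PARP9 and PARP14 are members themselves, so KPNA1 was the only other gene that rose. Across all genes tested, 22.9% rose and 12.4% fell. KPNA1, a nuclear import receptor that starts 49632 bp from PARP9, had a log2 change of 0.86 (limma adjusted p of 0.0468). It did not pass under 9 of 17 alternatives, among them leaving out knockout-labelled library 3 (0.0969) or wild-type library 1, 2 or 3 (0.0653 to 0.0726), and it was -0.13 with the GC trend removed. WDR5B and FAM162A had 0.56 and 0.78 and did not pass. Around ZC3HAV1, 2 of 5 tested genes rose and 1, ZC3HAV1L, fell. The risers were UBN2 (1.42), which lost the threshold without any 1 of the wild-type libraries (limma adjusted p of 0.0503 to 0.0604) or knockout-labelled library 3 (0.236), and AC018644.1, a pseudogene inside ZC3HAV1 on the same strand, listed at 0 in wild type. Around PARP10, 2 of 14 rose and 7 fell, and GRINA, which overlaps it, had a log2 change of 0.85, lost without knockout-labelled library 3 (limma adjusted p of 0.0661).

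For each member, the 3 genes with the closest centred profile over the 6 libraries were all outside the family. They were sought among 11862 other genes with a mean of at least 5 TPM. CDC27, ARHGAP29 and NCEH1 were nearest to PARP9, at Euclidean distances of 0.17 to 0.34 on the log2(TPM + 1) scale. SP3, NSMAF and RPL15 were nearest to DTX3L. EIF3J and MARCHF7 were among the nearest to PARP14, and CCNK, FGF2 and RAB3GAP2 were nearest to ZC3HAV1. ASF1B, TXNRD2 and KHDC4 were nearest to PARP12, and MYADM, FBL and IL10RB to PARP10. Between members, DTX3L ranked 206 of 11862 from PARP14 and 214 from ZC3HAV1. PARP9 ranked 1699 from DTX3L, and DTX3L ranked 457 from PARP9. From DTX3L, PARP12 ranked 5123 and PARP10 8134. Only 3 of the 18 nearest genes were also nearest by Pearson correlation, so these names depend on the measure.

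**Figure D5:**
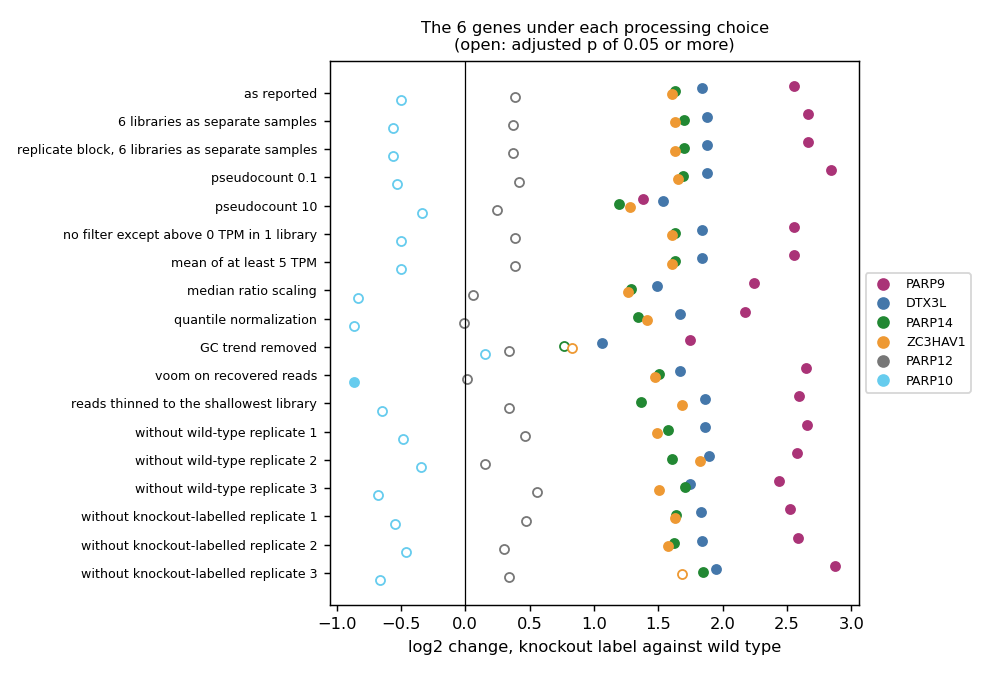
Log2 change of each gene under the knockout label (x axis) in rRNA-depleted libraries as reported and under 17 other processing choices (rows); open circles have an adjusted p of 0.05 or more. PARP9 and DTX3L are filled in every row, PARP14 opens with the GC trend removed, ZC3HAV1 opens there and without knockout-labelled replicate 3, and PARP10 is filled with voom only.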

How the data were processed

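RNA of 16 HMC3 libraries was grouped by genotype and library type from the titles. Per the submitters' processing notes hg38, Trimmomatic, STAR and DESeq2 were used; counter, annotation and strand setting are not given in the sources used here. The authors deposited 1 poly(A) comparison with no value per library: per the file headers a mean normalized count (a signal), a log2 fold change and its SE, a Wald score, and p-values before and after adjustment. The authors deposited TPM for each rRNA-depleted library. No per-sample column was left unused (0 columns).

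Gene lengths, positions and GC content came from GENCODE 29, which matched 56927 of 60669 genes (93.8%). Reads were recovered as whole multiples of TPM times length; 90.9% of values above 0 were whole, to within 0.02 reads. limma 3.58.1 in R 4.3.3 (lmFit, eBayes with trend) was fitted on log2(TPM + 1), with a pseudocount of 1, over genes that reached 1 TPM in 3 or more libraries, with Benjamini-Hochberg adjustment over all of them at 0.05. Called genes split into 3382 higher and 1838 lower (64.8% higher), against 48.6% higher with median ratio scaling, which moved the median change of all genes from 0.41 to 0.11. The fit was also run on simulated reads, where it did not recover every changed gene. The changed genes were drawn only from genes above a minimum mean number of reads, so the simulation does not describe scarcer genes. A gene that did not pass may still have changed. Permutation tests used scipy 1.17.1; other steps used Python 3.11.15 and matplotlib 3.10.9. A group was at the floor where each library held at most 3 reads. Named genes are the 6 members, METTL3, list genes that passed or define a list, the 3 nearest genes by profile, and neighbours within 200 kb. Results for some other genes are not reported here. The members and lists were chosen with earlier results of these data known. Alternatives covered pseudocount, filter, scaling, GC content, depth, voom, pairing and each library left out.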

Additional observations from a re-analysis of the deposited data

How the results depend on the processing

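PARP9 and DTX3L kept their direction and an adjusted p under 0.05 in all 17 alternatives, with log2 changes of 1.38 to 2.88 and 1.06 to 1.95. With the GC trend removed 2 of the 6 genes were called in place of 4: PARP14 had 0.77, ZC3HAV1 0.83, PARP10 0.15 and METTL3 -0.37, and KPNA1 -0.13. Quantile normalization gave PARP12 -0.0097. With voom, PARP10 passed as lower (-0.87), so 5 of the 6 were called. That setting called 7376 of 14673 genes, 3869 higher and 3507 lower. Its median change over all genes was 0.03, against 0.41 as reported. METTL3 passed as higher with 6 libraries as separate samples (0.46). With each library left out in turn, 3 to 4 of the 6 genes and 2027 to 4922 genes in all were called; the ranges of log2 change were 2.44 to 2.88 for PARP9, 1.75 to 1.95 for DTX3L, 1.57 to 1.84 for PARP14, 1.49 to 1.82 for ZC3HAV1, 0.15 to 0.56 for PARP12, -0.68 to -0.35 for PARP10 and 0.38 to 0.53 for METTL3. An adjusted p under 0.01 left 2242 genes in the rRNA-depleted libraries and 1811 in the authors' deposited table. Requiring a log2 fold change of 1 or more in size left 647 called genes of 14009 in the authors' deposited table. Of these, 4 were members: PARP9, DTX3L, PARP14 and the scarce PARP12, but not ZC3HAV1 (0.64). Pearson correlation kept 3 of 18 nearest genes. The cause of these shifts was not tested. QPRT, NAPRT, EXOSC3, ZC3HAV1L and TRIM25 passed under all 17 alternatives. Calls held in 14 of 17 for PARP1, TNKS, PARG and NMNAT1, 15 for XRN1 and GRINA, 12 for MACROD1, 10 for PARP4 and STAT2, 8 for NAMPT and UBN2, and 10 of 16 for PARP8. With reads thinned to the shallowest library, NAMPT, UBN2 and GRINA had limma adjusted p-values of 0.0613, 0.107 and 0.106. PARP4, TNKS, PARP8, PARG and MACROD1 did not pass with thinned reads either.

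Equal replicate numbers did not deviate together (correlations of 0.02, -0.02 and 0.01 across genes), and not every library correlated best with its own number. With the replicate block over 6 separate libraries 6037 genes were called, against 6880 without it, and the same 4 members, with log2 changes of 2.66, 1.88, 1.70 and 1.63 for PARP9, DTX3L, PARP14 and ZC3HAV1. PARP10 and PARP12 rest on 6 to 19 reads per wild-type library, which limits their precision.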
